A study of Mus musculus with 2 samples.

Results

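The genes described here are 3 early growth response transcription factors (Egr1, Egr2 and Egr3), their 2 corepressors of the NAB family (Nab1 and Nab2) and 3 further immediate early genes (Ier2, Ier3 and Ier5). They were chosen by name, from a list drawn up with the 3D to 2D ratios of these libraries in view, so their ratios are a description and were not tested. All 8 were found among 52550 gene identifiers. All 8 were also among the 11673 measured genes, those with a mean over both libraries of at least 1 count per 1000000 (CPM) after scaling by the trimmed mean of M values (TMM). The libraries came from RAW264.7, a macrophage line from a mouse tumour induced by a leukaemia virus, grown untreated as a 2D or a 3D culture, and the labels do not say how the 3D culture was made. Each culture method was represented by 1 library of polyadenylated RNA, with 14371084 counts for 2D and 16652503 for 3D. No p-value was computed, and no difference below has a replicate check. The 95% intervals are exact and cover counting error only. They treat reads as separate molecules, although no molecular identifiers were used.

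EGR proteins are zinc finger transcription factors that bind GC-rich DNA and are among the first factors induced by growth factors, adhesion and stress. The usual route runs from RAS through the kinases RAF, MEK and ERK to the ternary complex factors ELK1 and ELK4, which sit with serum response factor (SRF) on CArG boxes in the promoters of immediate early genes. NAB1 and NAB2 have no DNA-binding domain of their own. They bind to EGR1, EGR2 and EGR3 and repress their targets, NAB2 in part through the chromatin remodeller CHD4, and Nab2 is itself a target of EGR proteins, which closes a feedback loop. In myeloid precursors, EGR1 and EGR2 act with NAB2 in the choice of the macrophage fate over the neutrophil fate.

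Levels of Egr1, Egr2, Nab2 and Ier2 in 3D exceeded those in 2D by 2-fold or more, and no gene of the 8 was 2-fold lower. Ratios of Egr3, Ier3 and Ier5 lay between 1.08 and 1.38, and Nab1 was 1.84-fold lower. The 4 higher genes compare with 18.7% of all measured genes that were at least 2-fold higher, and the 0 lower ones with 20.8% that were at least 2-fold lower. The median log2 ratio was 0.90 for the 8 genes and 0.05 for all measured genes. Together the 8 genes held 0.0410% of all counts in 2D (Wilson 95% interval 0.0399 to 0.0420) and 0.0494% in 3D (0.0483 to 0.0504). Scaling to total counts lowered every log2 ratio by 0.60, and scaling to the median of 22 reference genes lowered it by 0.81. With total counts 3 of the 8 genes were at least 2-fold higher (5.77% of all genes) and 1 was lower (35.9%), and with reference genes 2 were higher (3.46%) and 1 was lower (42.4%). Higher genes made up 47.3% of all genes past 2-fold under TMM, 13.9% with total counts and 7.54% with reference genes. In bulk RNA, fewer cells with a transcript and less of it per cell cannot be told apart.

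**Figure D1:**
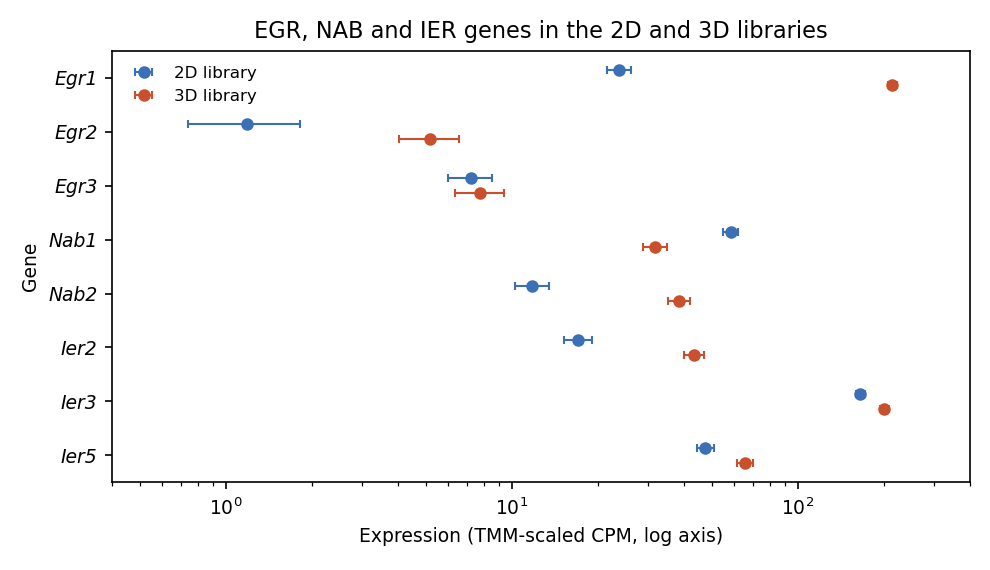
Expression of the 8 genes in TMM-scaled CPM on a log axis, with 1 point per library and bars for the exact 95% Poisson interval of the count (counting error only). Egr1 goes from 23.7 CPM in 2D to 214 in 3D, Nab1 and Nab2 go opposite ways, and the intervals of Egr3 overlap.

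The labelled cell type was checked against its markers. All 10 macrophage markers were measured, with sums of 3611 CPM in 2D and 10073 CPM in 3D. Of them, 6 were 2-fold or more higher and 0 were 2-fold or more lower (18.7% and 20.8% of all genes). Itgam, Fcgr1 and Mpeg1 went the other way, with ratios of 0.731, 0.687 and 0.940. After adjustment none of the 10 was past 2-fold, against 10.1% of all genes higher and 10.2% lower. The median adjusted log2 ratio of the 10 was -0.08. Defining markers of fibroblasts (Col3a1, Lum) and of lymphocytes (Cd3e, Cd3d, Ms4a1) had 0 counts in both libraries. The 6 fibroblast markers summed to 20 counts in 2D and 17 in 3D, mostly from Pdgfra (14 and 13), the 6 lymphocyte markers to 7 and 4, mostly from Cd79a (6 and 4), and the 4 epithelial markers to 5 and 7. Of 5 endothelial markers, Vwf held most of the 392 and 754 counts. The 5 hepatocyte markers summed to 10 counts in 2D and 306 in 3D, of which Alb had 8 and 232, and Ttr and Serpina1a were at 0 in 2D. The hepatocyte markers and the summed macrophage markers moved with the higher genes named here, and their part in any ratio was not tested.

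Egr1 (ENSMUSG00000038418) spans 34859823 to 34864984 on chromosome 18 of build mm10 (GRCm38) and had the highest level of the EGR genes. It had 419 counts (23.7 CPM) in 2D and 2899 counts (214 CPM) in 3D. The ratio of 9.04 (8.16 to 10.04) stood above those of 99.7% of measured genes. Among measured genes, Egr1 moved from percentile 42.1 to percentile 88.5 of expression per kilobase of exon. Its log2 ratio was 3.18 under TMM scaling and stayed at least 2.12 in 7 alternatives, the lowest being an adjustment for the trends of all genes with GC content, with exon length and with mean expression. Measured protein-coding genes within 1 percentage point of its GC content (57.3%) had a median log2 ratio of 0.81.

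The protein-coding genes whose pattern over the 2 libraries was most like that of Egr1 were Pdpn, Pgp and Atp9a. They were picked as the nearest in log2 ratio among 2848 genes with a mean CPM within 2-fold of that of Egr1. Pdpn, which encodes the membrane mucin podoplanin, had a ratio of 8.26. Phosphoglycolate phosphatase Pgp stood at 7.95, and Atp9a, which encodes a phospholipid flippase, at 5.73. With 2 libraries this likeness is a match of 1 ratio only, and the 3 genes lay 0.13, 0.19 and 0.66 below Egr1 on the log2 scale.

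Egr2 (ENSMUSG00000037868, chromosome 10, 67535475 to 67542188), known in macrophages as a factor of alternative activation, was far less abundant. It had 21 counts (1.19 CPM) in 2D and 70 counts (5.17 CPM) in 3D, a ratio of 4.36 with a wide interval of 2.64 to 7.47. Its log2 ratio was 2.12, or 2.47 after the adjustment, and the lowest value, 1.31, came with reference gene scaling. The 2D and 3D counts of Egr2 do not overlap in their counting intervals, which ran from 13.0 to 32.1 and from 54.6 to 88.4 counts.

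Egr3 (ENSMUSG00000033730, chromosome 14, 70077203 to 70082614), a family member best known in lymphocytes and muscle spindles, had near equal levels. It had 127 counts (7.18 CPM) in 2D and 105 counts (7.76 CPM) in 3D, a ratio of 1.08 (0.826 to 1.41). Under total counts its log2 ratio was -0.49 and under reference genes -0.70, so the direction depends on the scaling. Against Egr3 within the same libraries, a quotient that no library scaling moves, Egr1 was 8.37-fold higher in 3D than in 2D (6.27 to 11.2), a log2 difference of 3.06 that the adjustment lowered to 1.83. The quotient of Egr2 over Egr3 was 4.03-fold higher (2.26 to 7.37). Egr4, the remaining family member, and the related zinc finger gene Wt1 had 0 counts in both libraries, which allows up to 0.17 CPM in 2D and 0.222 CPM in 3D. The 3 expressed EGR genes together went from 32.1 to 227 CPM. Per kilobase of exon, Egr1 made up 72.7% of their summed level in 2D and 93.6% in 3D.

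Of the 8 genes, 5 had promoter windows in the RefSeq table of GRCm38.p6, each running from 250 bases before to 50 bases after an annotated start: Egr2, Nab1, Nab2, Ier3 and Ier5. The windows were searched on both strands for 7 motifs. An Egr2 window is shown because Egr2 was the only gene of the 5 with a CArG box, in windows of 4 of its 5 annotated starts. The window at chr10:67537619-67537918 (plus strand) is given 5′ to 3′, with the CArG box in capitals.
Egr2: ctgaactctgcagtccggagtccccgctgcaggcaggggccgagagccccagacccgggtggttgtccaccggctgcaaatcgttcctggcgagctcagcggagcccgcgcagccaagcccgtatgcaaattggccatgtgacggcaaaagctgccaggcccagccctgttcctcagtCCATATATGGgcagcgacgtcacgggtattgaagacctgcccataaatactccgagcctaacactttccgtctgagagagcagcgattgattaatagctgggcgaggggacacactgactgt
The box lies at bases -72 to -63 from the start, and the reverse complement reads the same. CArG boxes occurred in 1.64% of 32544 distinct promoter windows and in 1.20% of 11147 windows of measured genes. The window of another annotated Egr2 start (chr10:67537316-67537615) held a second CArG box, also at -72 to -63. Windows of 2 further starts overlap the printed one and hold the same box. The core of the cyclic AMP response element (TGACG) lay on either side of the box at -111 to -107 and -55 to -51, and 20.9% of all windows and 32.1% of those of measured genes held such a core. A match describes letters, not occupancy.

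Nab1 (ENSMUSG00000002881, chromosome 1, 52457294 to 52500679) and Nab2 (ENSMUSG00000025402, chromosome 10, 127660918 to 127668568) encode the corepressors, and they went opposite ways. Nab1 had 1033 counts (58.4 CPM) in 2D and 429 counts (31.7 CPM) in 3D, 1.84-fold lower (1.64 to 2.07). Nab2 had 209 counts (11.8 CPM) and 521 counts (38.5 CPM), 3.26-fold higher (2.77 to 3.84). Under TMM scaling their summed level was near equal, at 70.2 CPM in each library, or 18.3 and 20.8 CPM per kilobase of exon. As a share of all counts the sum was lower in 3D, at 0.00570% (Wilson interval 0.00535 to 0.00608). In 2D the share was 0.00864% (0.00817 to 0.00914). The near equality of the sum thus depended on the scaling. Per kilobase, Nab2 stood at 0.282 of the Nab1 level in 2D and at 1.69 times the Nab1 level in 3D. This quotient was 6.0-fold higher in 3D (4.91 to 7.34), whatever the scaling of the libraries.

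The corepressors also differ in transcript composition. The longest Nab1 transcript has a GC content of 47.2% and the longest Nab2 transcript 60.1%, and measured protein-coding genes within 1 point of them had median log2 ratios of -0.25 and 0.94. After adjustment the log2 ratios were -0.79 for Nab1 and 0.79 for Nab2, and the difference between them was 1.57, against 2.59 before it. The part of GC content in the contrast was not tested further. Nab2 was below 2-fold after adjustment and with reference gene scaling, at a log2 ratio of 0.89. Nab1 passed 2-fold lower only when the libraries were scaled to total counts (log2 ratio -1.48) or to reference genes (-1.70).

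Counts of Nab2 carry one more uncertainty, since the gene overlaps others on the opposite strand and no source used here gives the strand setting of the counting. It shares 40 exon bases with Stat6, which had 2675 and 5341 counts, and 151 exon bases with Nemp1, which had 652 and 183 counts. The antisense gene Gm16229, which shares 1050 exon bases with Nab2, had 0 counts in both libraries. No annotated gene overlapped the other 7 genes.

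The promoters of the corepressors are shown because NAB genes are known as EGR targets. The EGR binding site searched was GCGNGGGCG, found in 5.60% of all windows and in 10.5% of those of measured genes. The Nab1 window (chr1:52500399-52500698, minus strand) and the Nab2 window (chr10:127666654-127666953, minus strand) follow, 5′ to 3′, with EGR sites in capitals.
Nab1: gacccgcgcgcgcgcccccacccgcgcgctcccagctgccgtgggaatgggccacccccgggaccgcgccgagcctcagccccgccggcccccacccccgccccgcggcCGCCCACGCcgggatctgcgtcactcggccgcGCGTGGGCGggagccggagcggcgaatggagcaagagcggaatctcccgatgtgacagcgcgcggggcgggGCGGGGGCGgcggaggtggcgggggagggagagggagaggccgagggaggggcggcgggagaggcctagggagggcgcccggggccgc
Nab2: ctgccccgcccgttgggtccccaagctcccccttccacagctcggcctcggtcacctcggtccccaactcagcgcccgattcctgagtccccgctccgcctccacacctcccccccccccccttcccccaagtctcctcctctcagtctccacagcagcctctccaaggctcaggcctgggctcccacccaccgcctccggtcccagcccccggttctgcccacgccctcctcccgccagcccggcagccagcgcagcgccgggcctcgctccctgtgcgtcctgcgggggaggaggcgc
The Nab1 window held 3 EGR sites, at -141 to -133 (reverse strand), -109 to -101 and -38 to -30, each of which overlaps a GC box (GGGCGG). The Nab2 window held none, and of the 7 motifs it had only a GC box, at -245 to -240. That window lies within the annotated Nab2 gene, whose upstream end is at 127668568. Sequence at that end was not searched, so the absence holds for this window only. The GC content was 81.7% in the Nab1 window and 74% in the Nab2 window. The Ier3 and Ier5 windows held GC boxes and none of the other motifs searched. Those were the EGR site, the CArG box, the AP-1 site (TGANTCA) and the TATA box (TATAAA). The cyclic AMP response element (TGACGTCA) and its core (TGACG) were also searched. Only exact matches to these patterns were counted, so other forms of a motif, the TATA box among them, would be missed. GC boxes occurred in 35.9% of all windows and 63.0% of those of measured genes, the AP-1 site in 7.79% and 5.04%, the TATA box in 13.6% and 6.72%, and the full cyclic AMP response element in 1.8% and 3.22%.

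The transcript level of Egr1 was compared with that of each corepressor gene within each library, which needs no scaling between libraries. Protein levels were not measured. Per kilobase of exon, Egr1 stood at 1.31 times Nab2 in 2D and 3.65 times in 3D, a 2.78-fold higher quotient (2.28 to 3.37). Against Nab1, Egr1 stood at 0.371 in 2D and 6.18 in 3D, a 16.7-fold higher quotient (14.3 to 19.5). After adjustment these 2 differences were 1.33 and 2.90 on the log2 scale, against 1.47 and 4.06 before it. Per kilobase, Egr1 stood above both corepressors in 3D, whereas in 2D it stood above Nab2 and below Nab1.

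Ier2 (ENSMUSG00000053560, chromosome 8, 84661331 to 84662852), which encodes a small nuclear protein, was the IER gene with the highest ratio. It had 302 counts (17.1 CPM) in 2D and 587 counts (43.4 CPM) in 3D, 2.54-fold higher (2.21 to 2.93). Its transcript has the highest GC content of the 8, 60.9%, and measured protein-coding genes within 1 point of that had a median log2 ratio of 0.96. The log2 ratio of Ier2 was 1.35 before adjustment and 0.12 after it, and it was below 1 with total counts (0.75) and reference genes (0.53).

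Ier3 (ENSMUSG00000003541, chromosome 17, 35821684 to 35822923), which encodes a short-lived protein involved in stress and survival signals, was the most abundant of the 8 per kilobase in both libraries. It had 2934 counts (166 CPM) in 2D and 2721 counts (201 CPM) in 3D, a ratio of 1.21 (1.15 to 1.28). Its log2 ratio was 0.28 under TMM scaling, -0.32 with total counts, -0.54 with reference genes and -1.19 after adjustment. Its direction thus depended on the processing. Genes within 1 point of its GC content (54.4%) had a median of 0.62, and its exons (1131 bases) are the shortest of the 8. Within the libraries, the quotient of Ier2 over Ier3 was 2.10-fold higher in 3D (1.8 to 2.44) and that of Egr1 over Ier3 7.46-fold higher (6.64 to 8.39).

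Ier5 (ENSMUSG00000056708, chromosome 1, 155096361 to 155099636), whose protein joins the phosphatase PP2A to heat shock factor 1, had 842 counts (47.6 CPM) in 2D and 887 counts (65.5 CPM) in 3D. The ratio was 1.38 (1.25 to 1.51). The direction turned under total counts (log2 ratio -0.14), reference genes (-0.35) and the adjustment (-0.15), against 0.46 under TMM scaling.

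**Figure D2:**
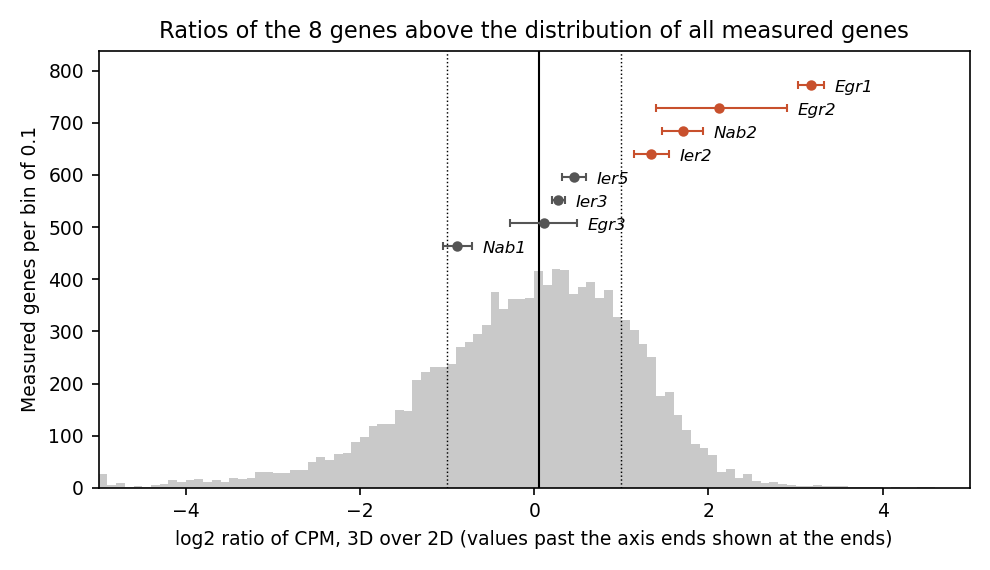
Log2 ratio of CPM, 3D over 2D, for the 8 genes (points with 95% counting intervals, coloured where at least 2-fold different) above a histogram of all 11673 measured genes. The solid line marks the all-gene median of 0.05 and dotted lines mark 2-fold; Egr1, Egr2, Nab2 and Ier2 lie to the right of the upper 2-fold line.

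By expression per kilobase the 8 genes came in a different order in each library. In 2D, Ier3 came first with 147 CPM per kilobase, followed by Ier5 with 14.5 and Nab1 with 14.2, whose counting intervals overlap. Ier2 came next with 11.2, then Egr1 with 5.28, Nab2 with 4.02, Egr3 with 1.63 and Egr2 with 0.349. Neighbours below Nab1 in that order did not overlap in their counting intervals. In 3D, Ier3 again came first, with 178 CPM per kilobase. Egr1 was second with 47.8, ahead of Ier2 with 28.5, Ier5 with 20.01, Nab2 with 13.1 and Nab1 with 7.73. Egr3 with 1.76 and Egr2 with 1.52 came last, and their intervals overlap.

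The adjustment changed which genes stood out. After it, Egr1 (2.12) and Egr2 (2.47) had adjusted log2 ratios of at least 1, which 10.1% of measured genes reached. Ier3 (-1.19) was at -1 or below, as were 10.2% of measured genes. The median of the 8 genes was 0.20 after adjustment, against 0.90 before it. With 1 library per culture method, a trend along these properties from the cells and one from library preparation cannot be told apart.

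**Figure D3:**
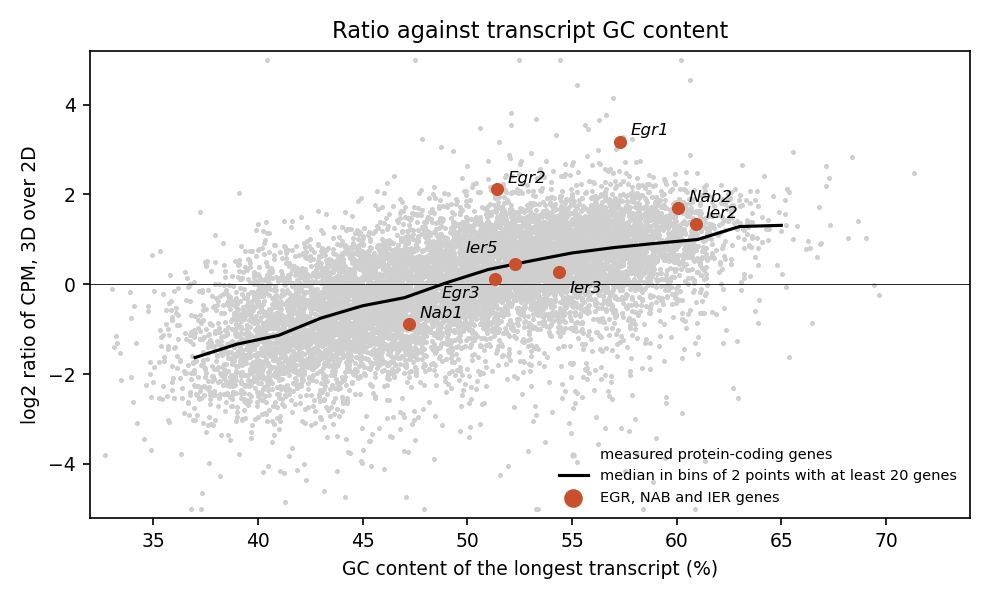
Log2 ratio of CPM, 3D over 2D, against GC content of the longest transcript, with measured protein-coding genes in grey, their median in bins of 2 percentage points as a line, and the 8 genes in colour. Egr1 and Egr2 lie furthest above the line, Nab2 and Ier2 lie nearer to it, Ier5 lies on it, and Egr3, Ier3 and Nab1 lie below it.

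**Figure D4:**
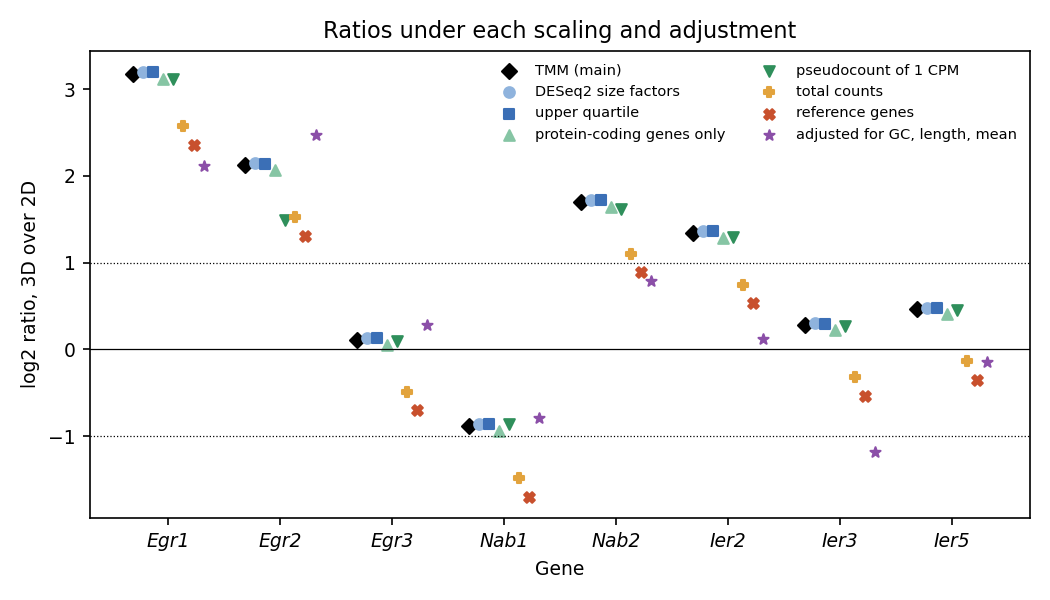
Log2 ratio, 3D over 2D, of each of the 8 genes under TMM scaling and 7 alternatives, with dotted lines at 2-fold. Egr1 and Egr2 stay above the upper line in each, and Egr3, Ier3 and Ier5 have values on both sides of 0.

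Gene structure was not used in choosing the genes. Of the 8, 6 have at most 2 exons in the longest transcript, as do 11.6% of measured protein-coding genes, and the exceptions are Nab1 with 8 and Nab2 with 7. For some measured genes, such as Tgfb1, the longest annotated transcript is a model of 1 exon although the gene is spliced. Ier2 and Ier5 have 1 exon each. Gene lengths ran from 1240 bases for Ier3 to 7651 bases for Nab2, apart from 43386 bases for Nab1, with a median of 23940 bases for measured protein-coding genes. AUUUA pentamers, the core of AU-rich elements that mark short-lived transcripts, were counted in 3′ UTRs, a measure chosen after the values were seen. At least 1 was present in 7 of the 8, all but Ier2, against 70.4% of measured protein-coding genes. Per kilobase of 3′ UTR the median was 2.57 for the 8 genes and 1.29 for measured protein-coding genes. Measured protein-coding genes with at most 2 exons had a median log2 ratio of 0.14, and the others 0.06.

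Other immediate early genes were counted from a list of 41, of which 37 were measured. In 3D, 19 of them were higher by 2-fold or more and 1, Nr4a2, was lower, against 18.7% and 20.8% of all measured genes, and the list median was 1.02. The phosphatase gene Dusp5, a feedback inhibitor of ERK, was 5.73-fold higher (4.75 to 6.95). The AP-1 genes Fosl1 and Jund were 4.45-fold (3.90 to 5.10) and 4.59-fold (3.73 to 5.68) higher, and Arc was 4.63-fold higher (3.54 to 6.13). Fos itself, named outside the rule as the classic member, stood at 5.88 and 21.6 CPM. Nr4a2, an orphan nuclear receptor gene, was 3.59-fold lower (2.27 to 5.91). After adjustment 11 genes of the list were at 1 or above and 2 (Nr4a2 and Gadd45b) at -1 or below, against 10.1% and 10.2% of all genes. Total counts gave 8 higher and 4 lower (5.77% and 35.9% of all genes), and reference genes 6 and 6 (3.46% and 42.4%). Ccn1, Ccn2, Klf4 and Phlda1 were below the limit of 1 CPM.

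Of 20 measured genes of the RAS to ERK cascade, 5 were higher by 2-fold or more and 4 lower, shares near the 18.7% and 20.8% of all measured genes. The MEK gene Map2k2 was 4.33-fold higher (4.12 to 4.55), Hras 4.18-fold (3.71 to 4.71), the ERK gene Mapk3 3.31-fold (3.13 to 3.5) and the ERK-activated kinase gene Rps6ka4 3.02-fold (2.74 to 3.33). The fifth was Rps6ka1, at 2.41-fold. The lower genes included Sos1, Sos2 and Rps6ka5, between 2.16-fold and 2.49-fold. After adjustment only Hras (1.27) of this list was at 1 or above and 0 at -1 or below (10.1% and 10.2% of all genes). With total counts 3 were higher and 7 lower (5.77% and 35.9% of all genes), and with reference genes 2 and 7 (3.46% and 42.4%). Of 12 genes for SRF, its cofactors and CREB factors, 3 were higher and 3 lower, also near the shares of all genes. The SRF coactivator gene Mrtfa was 2.47-fold higher (2.33 to 2.63), the CREB coactivator gene Crtc1 3.31-fold higher (2.86 to 3.83), Elk4 3.5-fold lower (2.88 to 4.28) and Creb1 2.61-fold lower (2.31 to 2.96). Srf itself stood at 49.98 and 117 CPM, 2.35-fold higher, and Crem was 2.10-fold lower. After adjustment Crtc1 (1.40) and Elk4 (-1.48) were the genes of this list past 2-fold. That is 1 of 12 each way, near the 10.1% and 10.2% of all genes. Total counts gave 1 higher and 4 lower for this list (5.77% and 35.9% of all genes), and reference genes 0 and 4 (3.46% and 42.4%).

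Genes known as EGR targets, a list that draws on many cell types and here excludes Nab1 and Nab2, had 9 of 21 measured genes higher by 2-fold or more and 0 lower, beside 18.7% and 20.8% of all measured genes. As with every list here, earlier results of these libraries were known when it was made, so the count is not independent evidence. The growth factor gene Tgfb1 was at 272 CPM in 2D and 1739 CPM in 3D, 6.39-fold higher (6.20 to 6.595). The cell cycle inhibitor gene Cdkn1a was 3.89-fold higher (3.73 to 4.05), the prostaglandin E synthase gene Ptges 3.37-fold (2.72 to 4.19) and the adhesion molecule gene Icam1 2.69-fold (2.44 to 2.97). After adjustment 4 genes were at 1 or above (Tgfb1, Ptges, Fn1 and Flt1) and 3 at -1 or below (Tnf, Plau and Vegfa), beside 10.1% and 10.2% of all genes. Fn1, the fibronectin gene, had 10 and 33 counts and is also a gene of hepatocytes, whose markers were higher in 3D too. Total counts gave 4 higher and 4 lower (5.77% and 35.9% of all genes), and reference genes 3 and 5 (3.46% and 42.4%). Fasl had 0 counts in both libraries, and Mmp14 had 0 and 2.

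Partners of the NAB and IER proteins and factors of AU-rich mRNA decay were also counted. Of 13 genes for CHD4 and the subunits of its NuRD complex, 3 were higher by 2-fold or more, near the 18.7% of all genes, and 0 lower (20.8%). These were Mta3, Mbd3 and Mta1, at 2.44-fold, 2.33-fold and 2.14-fold. After adjustment none was 2-fold higher and only Mbd2 (-1.29) was lower, against 10.1% and 10.2% of all genes. With total counts 0 were higher and 2 lower (5.77% and 35.9% of all genes), and with reference genes 0 and 3 (3.46% and 42.4%). Of 7 genes for HSF1 and PP2A subunits, the scaffold gene Ppp2r1a was 2.49-fold higher (2.40 to 2.58) and none was 2-fold lower. Of all genes, 18.7% were higher and 20.8% lower by that rule. After adjustment or under either other scaling, 0 of the 7 were past 2-fold. Of 10 AU-rich decay factors, 1 was higher by 2-fold or more and 3 lower, beside 18.7% and 20.8% of all genes. The higher one, Zfp36, which encodes the decay factor tristetraprolin and is itself an immediate early gene, was 2.85-fold higher (2.51 to 3.25). Tia1 was 6.54-fold lower (5.41 to 7.97), the exonuclease gene Xrn1 2.64-fold lower (2.30 to 3.03) and the deadenylase gene Cnot7 2.26-fold lower (2.01 to 2.55). Adjusted log2 ratios of Xrn1 (-0.04) and Cnot7 (0.07) were near 0. Those of Tia1 (-1.32), Khsrp (-1.11) and Zfp36l2 (-1.01) were at -1 or below, as were 10.2% of all genes. No decay factor was at 1 or above after adjustment (10.1% of all genes). Total counts gave 0 higher and 6 lower (5.77% and 35.9% of all genes), and reference genes also 0 and 6 (3.46% and 42.4%).

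**Figure D5:**
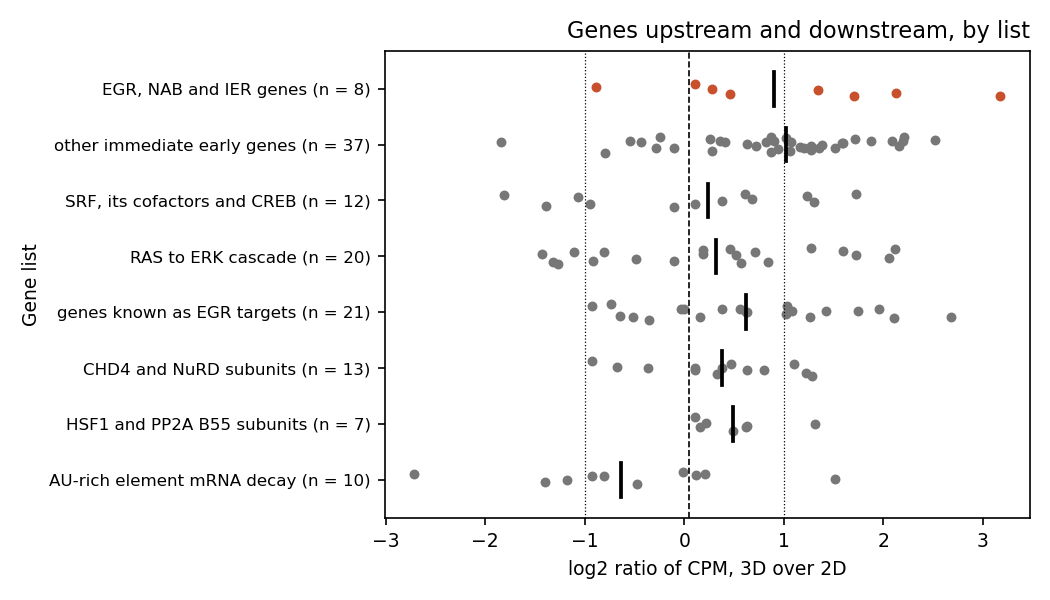
Log2 ratio of CPM, 3D over 2D, of the 8 genes and of the measured genes in 7 lists (1 point per gene, vertical bar at the median, dashed line at the all-gene median, dotted lines at 2-fold). The other immediate early genes have a median of 1.02 and the AU-rich decay factors -0.64, with the remaining lists between 0.24 and 0.62.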

How the data were processed

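Per the labels' protocols, TRIzol was used to extract total RNA, and libraries were prepared with a stranded kit for polyadenylated RNA. The authors deposited raw read counts per Ensembl gene, made with Trimmomatic, HISAT2 and HTSeq on build mm10 (per the submitters' processing notes). No version, setting or annotation release appears in the sources used here.

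Symbols, positions and exons came from GENCODE M21, which matched 52403 of 52550 identifiers, and promoters from RefSeq (GRCm38.p6). Counts were scaled with TMM (edgeR 4.0.16 in R 4.3.3), with factors of 1.23 (2D) and 0.813 (3D), and a mean of 1 CPM or more was required. Ratios carry exact Clopper-Pearson intervals conditional on the sum of both counts, quotients of 2 genes the exact conditional interval of the odds ratio, and single counts exact Poisson intervals. A count of 0 was set to 3 in ratios. The adjusted log2 ratio is the residual, centred on its median, from natural cubic splines of GC content, log exon length and log mean CPM with 4 degrees of freedom each (patsy 1.0.2). DESeq2 1.42.0 gave alternative size factors. The ratio, its counting interval and the adjustment were tested on simulated Poisson counts whose folds were known, scaled by total counts. The other steps were not tested in this way.

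The genes and lists were chosen with earlier results of these data known. Named were all 8 genes, up to 4 genes of each list at least 2-fold different with a mean of at least 5 CPM, ranked by the interval bound nearest to 1, and the 3 genes most like Egr1. Exceptions are named where a count of 5 or fewer called for it. Older list symbols were matched through RefSeq synonyms (Ccn1, Ccn2, Mrtfa and Mrtfb). Alternatives were other scalings, filters, folds, a pseudocount and the adjustment. A planned comparison of protein sequences was not run.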

Additional observations from a re-analysis of the deposited data

How the results depend on the processing

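Under TMM scaling 4 of the 8 genes were higher by 2-fold or more and 0 lower (18.7% and 20.8% of all genes). Both counts were the same with DESeq2 size factors (19.2% and 20.3% of all genes) and upper-quartile scaling (19.1% and 20.4%). So were those with scaling on protein-coding genes only (16.9% and 22.0%) and with a pseudocount of 1 CPM (16.6% and 18.1%). Leaving out the filter, or a rule on the interval's nearer bound, also gave the same counts. The shares of all genes under those rules are not given here. With total counts 3 were higher and 1 lower (5.77% and 35.9% of all genes), and with reference genes 2 and 1 (3.46% and 42.4%). After adjustment 2 were higher and 1 lower (10.1% and 10.2% of all genes). A mean of at least 5 CPM left Egr2 out and gave 3 higher, and the share of all genes under that filter is not given here. A ratio of at least 1.5 gave 4 higher and 1 lower (31.7% and 30.4% of all genes), and a ratio of at least 4 gave 2 higher and 0 lower (2.23% and 6.67%). Over all measured genes, the higher genes made up 47.3% of those past 2-fold under TMM scaling, 13.9% with total counts and 7.54% with reference genes. Of 56 log2 ratios of single genes under 7 alternatives, 20 lay outside the counting interval of the TMM value, and none of the 4 genes past 2-fold under TMM turned direction, while Ier3 went from 0.28 to -1.19 after adjustment. The cause was not tested. With 1 library per culture method no library could be left out. Depth limits Egr2 most, with 21 counts in the 2D library.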
